A study of Mus musculus with 31 samples.

Results

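The genes described here are 40 listed nucleolar and MYC-target genes, out of 18192 genes with a probe set of their own on the array. They were taken by name, and each was read from 1 probe set, the one with the highest mean log2(intensity + 1) over all 31 arrays. All 40 passed the filter on low values, as did 14017 of the 18192 genes. The rule uses no difference between groups, but earlier results of these arrays were known when the list was drawn up.

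Ribosome biogenesis begins in the nucleolus, where RNA polymerase I transcribes the precursor of the ribosomal RNAs. Small nucleolar RNA-protein particles then modify that precursor, and processing factors cut it and assemble it into the small and large subunits. MYC, a transcription factor that binds DNA together with its partner MAX, is known to activate many of these genes, together with genes for nucleotide and polyamine synthesis, translation and iron uptake. In the thymus MYC drives the growth of dividing thymocytes, and in mouse and human T cell lymphomas it is a frequent oncogene.

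RNA was measured on 31 Affymetrix mouse genome arrays from C57BL/6 mice of 3 genotypes of Stk38, the gene of the kinase NDR1. The tumors arose in the thymus after ENU (N-ethyl-N-nitrosourea), a mutagen that alkylates DNA, at 100 mg/kg and were taken when they developed or at the latest 9 months after treatment. The tumor arrays were 7 labelled NDR1-/- (KO tumors, 6 female and 1 male), 7 labelled heterozygous (HT tumors, 6 female and 1 male) and 5 labelled NDR1+/+ (WT tumors, all 5 female). The arrays of untreated normal thymi were 4 KO, 4 HT and 4 WT, 2 female and 2 male in each group. Titles name thymocytes and tumor cells where the tissue label says thymus, and no label says whether cells were isolated. Tumors and thymi therefore differ in ENU treatment as well as in disease, and the 2 cannot be told apart. No label says whether each array is a separate animal, so p-values measure the spread between these samples.

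Stk38 itself averaged 10.92 ± 0.33 log2 units in KO thymi, 11.44 ± 0.11 in HT thymi and 11.86 ± 0.15 in WT thymi (SD, n = 4 each). In tumors labelled KO it ranged from 8.73 to 13.08, across the 11.38 to 13.04 of tumors labelled WT, and no label says where the gene was disrupted, so this probe set cannot check the labels of single tumors. Genotypes of tumors below are therefore those of the labels. Markers of double-positive thymocytes, the main cell of the thymus, were lower in tumors than in thymi for 6 of 9 genes, markers of fibroblasts were higher for 6 of 10 and of macrophages for 3 of 10. T lineage markers were lower for 5 of 9, thymic epithelium markers for 4 of 9, neutrophil markers for 1 of 8 and proliferation markers for 1 of 14, and none of these 4 lists had a gene that was higher. Over all genes tested 11.6% were higher and 12.6% lower. Summed over its list, the double-positive signal was 8372 to 57140 intensity units in tumors and 93820 to 106400 in thymi, and the fibroblast signal 326 to 17450 and 149 to 737. None of 8 B cell markers tested passed, with sums of 219 to 77580 in tumors and 1748 to 7224 in thymi. The part of these cells in the results below was not tested beyond the comparisons given. RNA integrity was read from the control probe sets for actin and Gapdh, as the log2 excess of their 3' over their 5' signal, which rises as RNA degrades. This 3'/5' ratio was 0.18 to 4.87 in tumors and 0.26 to 0.50 in thymi.

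Most of the 40 genes were higher in tumors than in thymi. Genes of small-subunit processing, large-subunit assembly and RNA polymerase I rose by about 1 log2 unit in several cases. Those of the abundant nucleolar proteins nucleolin and nucleophosmin did not pass the test with the probe sets used. Wdr12 went the opposite way to every other member that passed, and Eif4e had the next largest negative difference without passing. With limma over all genes tested, sex as a covariate and Benjamini-Hochberg adjusted p under 0.05, 25 of the 40 were higher, 1 was lower and 14 did not pass. The same call was made for 24.2% of all 14017 genes, with 11.6% higher and 12.6% lower. The median difference, tumor minus thymus averaged over the 3 genotypes, was +0.60 over the 40 genes and +0.05 over all genes. Fewer cells of a type and less RNA per cell cannot be told apart in such bulk samples. With each array centred on the median of the genes tested, all genes split into 1216 higher and 2393 lower, against 1623 and 1767 as deposited. Their median moved to -0.07, while 20 members stayed higher, 2 were lower and their median was +0.48.

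**Figure D1:**
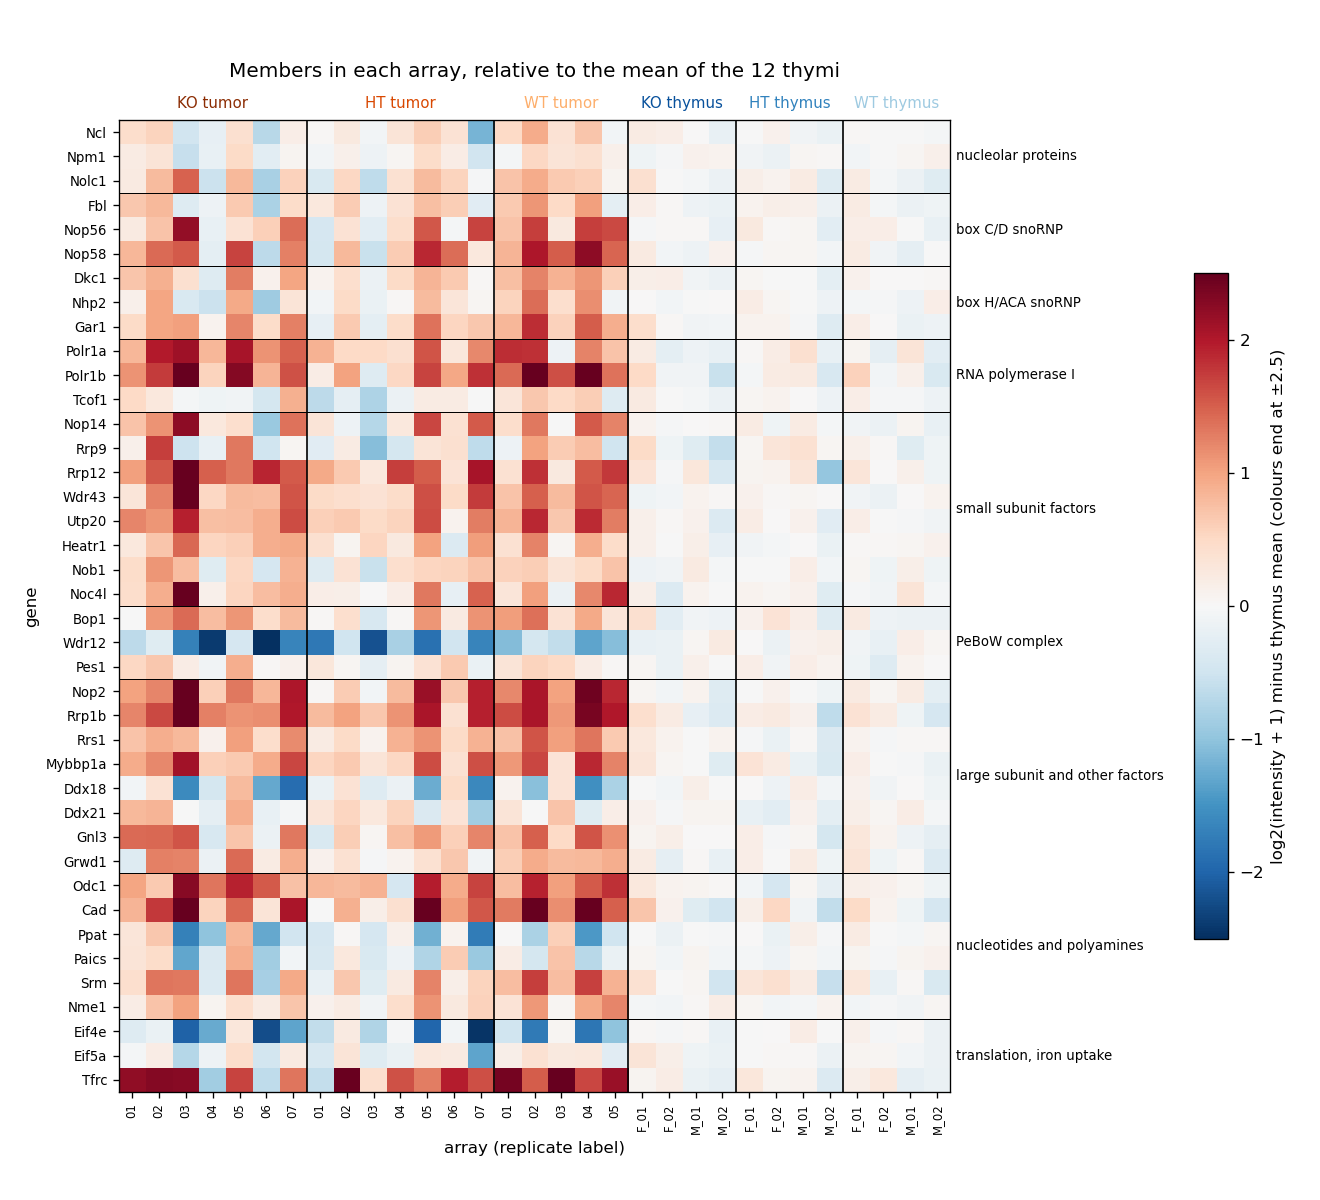
Level of each of the 40 genes (down the page, grouped by role) in each of the 31 arrays (across), as log2(intensity + 1) minus the mean of the 12 thymi; red is higher and blue lower, and colours end at ±2.5. Most genes are red across tumors, Wdr12 is blue in all 19, and the KO tumors 04 and 06 and HT tumors 01 and 03 have the least red.

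RNA polymerase I was represented by 2 subunits and a cofactor. Polr1b, the second-largest subunit, had 6.82, 8.57 and 9.82 log2 units as the lowest, median and highest of 19 tumors, against 6.59, 7.10 and 7.72 in 12 thymi. In 15 tumors it lay above the highest thymus and in none below the lowest. The difference was 1.33 (SE 0.254, limma adjusted p = 0.000419), a 2.51-fold higher level. Polr1a, the largest subunit, had 7.56, 8.80 and 9.81 in tumors and 7.42, 7.64 and 8.08 in thymi, and 17 tumors exceeded every thymus. It rose by 1.13 (SE 0.215, limma adjusted p = 0.000407). Tcof1, which encodes treacle, a nucleolar cofactor of this polymerase, differed by 0.07 and did not pass, with 7 tumors above and 5 below the thymus range. Its probe sets disagreed, since its 2 others gave +0.87 and +0.96 and passed (limma adjusted p = 0.026 and 0.018 over all probe sets).

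None of the 3 genes of abundant nucleolar proteins passed with the probe set used. Ncl, which encodes nucleolin, had 12.52, 14.01 and 14.62 in tumors and 13.51, 13.68 and 13.88 in thymi, so tumors lay on both sides of the thymus range, 11 above and 4 below. Npm1, which encodes the nucleolar chaperone nucleophosmin, had 13.29, 14.01 and 14.39 in tumors, against 13.72, 13.89 and 13.998 in thymi. The differences were 0.21 for Ncl (95% interval -0.14 to 0.57), 0.16 for Npm1 (-0.06 to 0.39) and 0.36 for Nolc1 (-0.07 to 0.80), which encodes the nucleolar phosphoprotein Nopp140. Other probe sets of Ncl gave +0.43 and +0.87, which passed (limma adjusted p = 0.019 and 0.014 over all probe sets). Its remaining probe sets gave -0.22 and -0.10 and did not pass, so its call rests on the probe set chosen. The other probe sets of Nolc1 gave +0.93 (limma adjusted p = 0.0013 over all probe sets) and +0.56.

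The particles that modify ribosomal RNA were split among their subunits. In the box C/D particle, which carries out 2'-O-methylation, the scaffold gene Nop58 had 9.89, 11.80 and 12.78 in tumors and 10.32, 10.51 and 10.77 in thymi. Tumors separated into 15 above and 4 below the thymus range, with none inside it. Nop58 rose by 1.04 (SE 0.277, limma adjusted p = 0.00731) and its partner Nop56 by 0.75 (adjusted p = 0.0371). The methyltransferase gene Fbl differed by 0.38 and did not pass (95% interval 0.01 to 0.75). In the box H/ACA particle, which makes pseudouridine, the pseudouridine synthase gene Dkc1 rose by 0.60 and the subunit gene Gar1 by 0.74. Nhp2, another core subunit, differed by 0.38 (-0.01 to 0.78) and did not pass.

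Small-subunit factors gave 6 of 8 genes higher. Wdr43, a component of the processome that assembles on the ribosomal RNA precursor, had 10.08, 10.57 and 12.40 in tumors and 9.63, 9.79 and 9.89 in thymi. It was the only member for which every tumor exceeded every thymus, a pattern found in 0.87% of all genes tested. The rise was 1.04 (SE 0.216, limma adjusted p = 0.000918). Rrp12, an export and maturation factor of pre-ribosomes, had 6.40, 7.67 and 9.34 in tumors and 5.19, 6.23 and 6.49 in thymi, and rose by 1.29 (SE 0.257, adjusted p = 0.000624). Utp20, a large processome scaffold, rose by 1.02, with 18 of 19 tumors above every thymus. Heatr1 (0.57), which also acts in polymerase I transcription, Noc4l (0.72) and the nuclease gene Nob1 (0.50), which cuts the last precursor of 18S rRNA, rose less. Nop14 differed by 0.73 with an adjusted p of 0.0651. Rrp9, a protein of the U3 particle, differed by 0.18 and had 12 tumors inside the thymus range.

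The PeBoW complex, a trimer of Pes1, Bop1 and Wdr12 needed to make the large subunit, had Bop1 and Pes1 higher and Wdr12 lower with the probe sets used. Wdr12 had 8.0, 9.99 and 10.78 in tumors and 10.89, 11.10 and 11.31 in thymi, so every tumor lay below every thymus, as for 1.82% of all genes tested. It fell by 1.02 (SE 0.251, limma adjusted p = 0.00413), to 0.493 of the thymus level, and its second probe set gave -1.21. Bop1 had 8.78, 9.95 and 10.58 in tumors and 8.85, 9.06 and 9.57 in thymi, and rose by 0.59 (SE 0.181, adjusted p = 0.0184), while its other probe set gave +0.13 and did not pass. Pes1 rose by 0.33 (SE 0.115, adjusted p = 0.0385), and its other probe set gave -0.08. Of the 3, Wdr12 alone passed with both of its probe sets above the filter.

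Large-subunit and other nucleolar factors gave 6 of 8 genes higher. Rrp1b, a nucleolar protein that also binds chromatin, had 9.15, 10.03 and 11.33 in tumors and 8.13, 8.91 and 9.19 in thymi, with 18 of 19 tumors above every thymus. It rose by 1.38 (SE 0.203, limma adjusted p = 1.67e-05), and its other probe sets gave +2.18 and +1.34. Nop2, an rRNA methyltransferase known as a proliferation antigen, had 8.88, 10.16 and 11.92 in tumors and 8.64, 8.98 and 9.18 in thymi, with 17 tumors above every thymus. Nop2 rose by 1.28 (SE 0.262, adjusted p = 0.00082). Mybbp1a, a nucleolar MYB-binding protein, rose by 0.96, Gnl3, which encodes nucleostemin, by 0.84, Rrs1, which helps load the 5S particle, by 0.82 and the histone-binding factor Grwd1 by 0.57. The other probe set of Rrs1 gave +0.24 and did not pass. The RNA helicase genes Ddx21 (0.30) and Ddx18 (-0.40) did not pass with the probe sets used. Other probe sets of Ddx18 had the opposite sign, at +0.10 and +0.51, and did not pass.

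Of the 6 genes of nucleotide and polyamine synthesis 4 were higher. Cad, the enzyme that starts pyrimidine synthesis, had 9.26, 10.56 and 12.40 in tumors and 8.64, 9.27 and 9.95 in thymi. It rose by 1.23 (SE 0.298, limma adjusted p = 0.00379), and 14 tumors exceeded every thymus. The polyamine genes Odc1 (1.05) and Srm (0.65, adjusted p = 0.0486) and the nucleoside diphosphate kinase gene Nme1 (0.57) also rose. The purine synthesis genes Ppat (-0.28) and Paics (-0.08), which are neighbours on mouse chromosome 5, did not pass, and 11 tumors lay below every thymus for each. The other Paics probe sets gave -0.08 and +0.54, the second with a limma adjusted p of 0.0155 over all probe sets.

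Among the genes of translation and iron uptake, Tfrc, the transferrin receptor, had the largest rise of all 40. It had 10.74, 13.28 and 14.13 in tumors and 11.26, 11.67 and 11.89 in thymi, with 16 tumors above and 3 below the thymus range. The difference was 1.53 (SE 0.356, limma adjusted p = 0.00261), a 2.89-fold higher level. Eif4e, which binds the mRNA cap, had 9.67, 11.37 and 12.40 in tumors and 11.93, 12.11 and 12.31 in thymi, and 13 tumors lay below every thymus. It differed by -0.81 (SE 0.308) and did not pass at an adjusted p of 0.0556, and its second probe set gave +0.15. Eif5a, the hypusinated elongation factor whose lysine is modified from a polyamine, differed by -0.07.

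**Figure D2:**
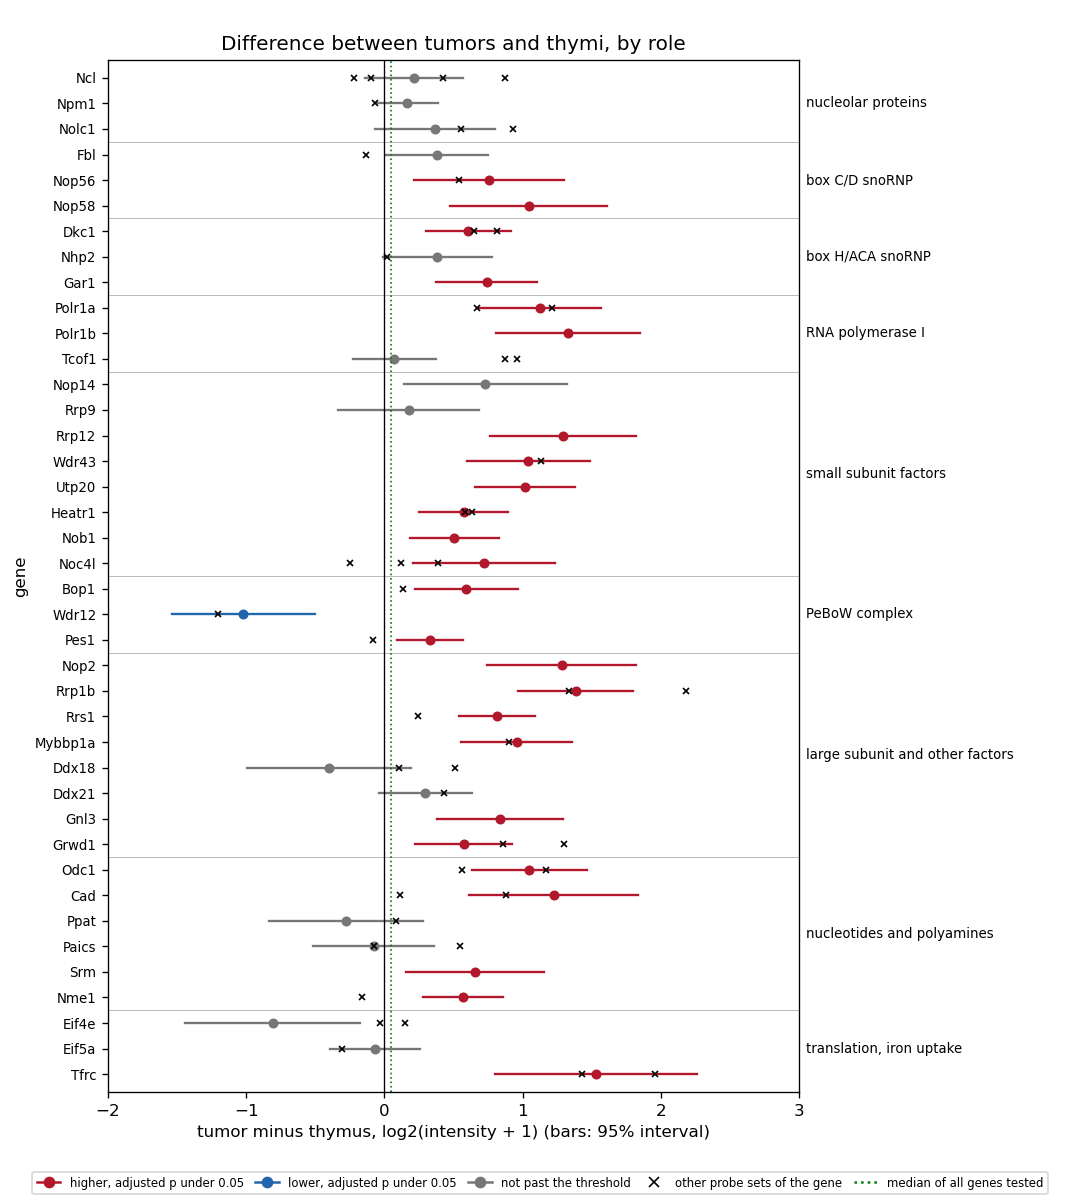
Tumor minus thymus difference of each gene in log2(intensity + 1), with points for the probe set used, bars for its 95% interval and crosses for the gene's other probe sets above the filter; colour gives the call and the dotted line the median of all genes tested. Rrp1b, Polr1b, Rrp12, Nop2 and Tfrc lie furthest right, and only Wdr12 is called lower.

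**Figure D3:**
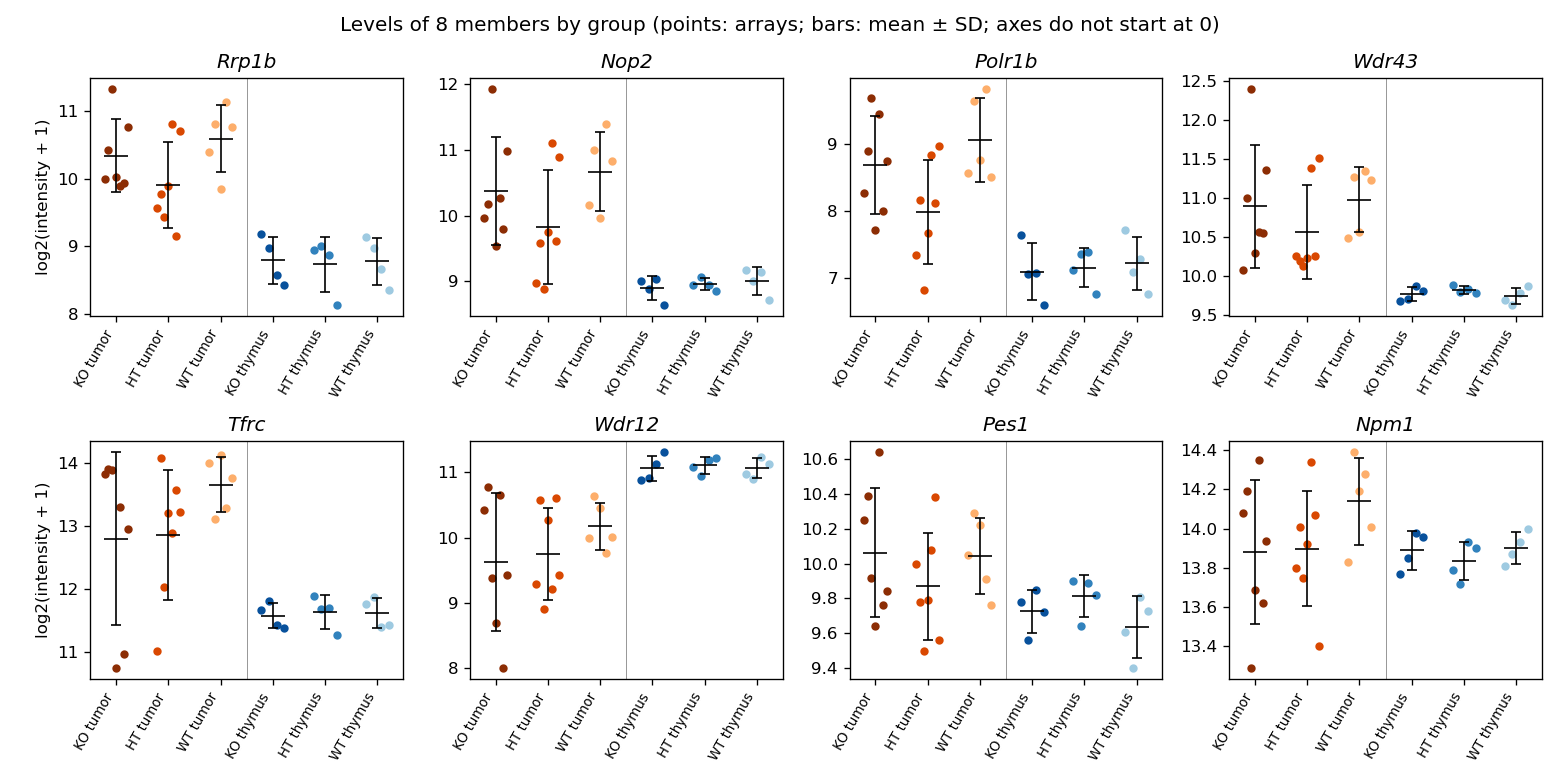
Levels of 8 genes in log2(intensity + 1) by group, with points for arrays and black bars for mean ± SD (n = 7, 7, 5, 4, 4 and 4 from left to right). Wdr43 is higher and Wdr12 lower in every tumor than in every thymus, while Npm1 tumors lie on both sides of the thymi.

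Of the 26 members that passed, 17 had further probe sets above the filter, and for 12 of these another probe set moved the same way at an unadjusted p under 0.05. Nme1, Noc4l and Pes1 had a probe set with the opposite sign, and 9 of the 26 rested on 1 probe set. The probe sets of 11 members, among them Nop56, Cad, Odc1, Nme1 and Rrs1, carry a suffix that marks possible matches to several transcripts.

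Some members moved with the 3'/5' ratio of the RNA across tumors. The 7 tumors of highest ratio (1.52 to 4.87, against 0.18 to 1.07 in the other 12) were HT tumors 07 and 05, KO tumors 07, 06 and 03 and WT tumors 04 and 02. They had the 7 lowest tumor levels of Eif4e, 9.67 to 10.79 against 10.85 to 12.40 in the other 12. They also had the 7 lowest of Ddx18, 8.45 to 9.31 against 9.55 to 11.15, and the 7 highest of Heatr1, 10.24 to 10.77 against 8.99 to 10.02. For Ppat, Paics and Ddx21, 6 of these 7 tumors were among the 7 lowest. For Nop2, Nop56, Rrp1b, Wdr43, Utp20, Mybbp1a, Cad and Nop14, 6 were among the 7 highest. These ranks were read for members only, so they cannot show whether members followed the ratio more than other genes did. With the ratio entered as a covariate, 20 members were higher and 1 lower, against 1116 higher and 1406 lower over all genes, 18.0% in all. Heatr1 (0.35, limma adjusted p = 0.0562), Nop56 (0.36), Noc4l (0.41), Bop1 (0.42), Nob1 (0.41) and Srm (0.58) no longer passed. Srm and Nob1 thus kept most of their differences of 0.65 and 0.50, while that of Nop56 had been 0.75. Ddx21 then passed at +0.58, Eif4e had -0.27 and Ddx18 +0.12. Rrp1b kept a difference of 1.11, Nop2 of 0.93, Wdr43 of 0.73 and Wdr12 of -0.79, each passing. The array reads the 3' ends of transcripts, and how far the ratio accounts for the remaining differences was not tested.

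MYC binds the E-box CACGTG, so this motif was looked for in RefSeq promoter windows of GRCm38.p6. Each window ran from 250 bases before to 50 after a start, and a gene with several starts could have several windows. A gene was counted if any of its windows held the motif, so more windows gave more chances. Windows were found for 33 of the 40 members, 44 windows in all. Of these members 10 held the motif, 30.3%, against 11.1% of 11221 tested genes with a window. The share was 8.09% of all 27025 genes of the table, which had 32851 windows. Known MYC targets were listed as members by name, so a higher share may follow from how the list was made. The motif reads the same on both strands, and its letters do not show that MYC is bound. It was present in 7 of 21 members that were higher (Grwd1, Mybbp1a, Nme1, Nop2, Pes1, Utp20 and Wdr43). It was also present in 3 of 11 that did not pass (Eif4e, Eif5a and Paics), and in no window of Wdr12. The stretches around the motif of the 4 such members with the largest rises are shown 5′ to 3′ on the gene's strand, with the motif in capitals.
Nop2, chr6:125131811-125131840, plus strand, 60 bases before the start: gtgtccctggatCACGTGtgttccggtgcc
Wdr43, chr17:71616220-71616249, plus strand, 17 bases after the start: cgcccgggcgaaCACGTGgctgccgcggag
Utp20, chr10:88826765-88826789, minus strand, 37 bases after the start: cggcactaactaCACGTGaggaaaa
Mybbp1a, chr11:72441355-72441376, plus strand, 40 bases after the start: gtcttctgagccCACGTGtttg
The 250 bases before the start of Nop2, chr6:125131633-125131882 on the plus strand, are given to show the motif in its wider context in the member of this set that rose most.
Nop2 upstream: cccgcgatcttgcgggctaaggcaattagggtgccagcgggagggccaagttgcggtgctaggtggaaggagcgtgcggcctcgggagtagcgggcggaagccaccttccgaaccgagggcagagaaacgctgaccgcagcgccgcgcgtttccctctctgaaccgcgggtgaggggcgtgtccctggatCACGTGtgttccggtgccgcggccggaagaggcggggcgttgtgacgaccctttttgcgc

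Myc itself had 8.97, 11.01 and 12.14 as the lowest, median and highest of tumors, against 9.50, 10.001 and 10.46 in thymi. It lay above every thymus in 13 tumors and below every thymus in KO tumors 04 and 06. Myc rose by 0.87 (SE 0.282, limma adjusted p = 0.0263), a call lost without HT tumor 04, without KO tumor 02, in female arrays alone and with arrays centred. Within single genotypes Myc did not pass, with tumor minus thymus differences of 0.78 for KO, 0.44 for HT and 1.38 for WT. Of the other genes of its network, Mlxip rose by 0.65 (adjusted p = 0.0269), a call lost in female arrays, with arrays centred, once the 3'/5' ratio was fitted, and without WT or HT thymus F_01 or KO thymus F_01 or F_02. Mlx, a partner of the related MondoA protein, fell by 1.06 with every tumor below every thymus. Mxi1, a MAX-binding repressor, fell by 1.35 (adjusted p = 0.021) and did not pass in female arrays or once the 3'/5' ratio was a covariate. Max, Mycn, Mycl, Mxd1, Mxd3, Mxd4, Mnt and Mga did not pass.

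Other genes of the same pathways were read from 2 longer lists that exclude the 40. Of 108 further ribosome biogenesis genes tested, 26 were higher and 7 lower, with a median of +0.27, against 11.6% and 12.6% of all genes and their median of +0.05. Nat10, which acetylates 18S rRNA, rose by 1.50, the pre-60S factor genes Sdad1 by 1.45 and Mdn1 by 1.29, and the GTPase-like gene Tsr1 by 1.36. Those that fell included Rpf1 (-1.37), the polymerase I initiation factor gene Taf1b (-1.22), the rRNA methyltransferase genes Rrp8 (-0.77) and Emg1 (-0.73) and the U3-particle gene Imp4 (-0.48). Of 54 further MYC targets tested, 17 were higher and 0 lower, against the same shares of all genes, with a median of +0.34. Among them the importin gene Ipo4 rose by 1.80, the purine enzyme gene Atic by 1.15, the uracil glycosylase gene Ung by 1.12 and the one-carbon enzyme genes Shmt1 by 1.02 and Shmt2 by 1.01. Without WT thymus F_02 or without KO tumor 02, 11 of the MYC targets passed. Both lists were drawn up with earlier results of these arrays known.

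The tumors did not share the pattern evenly. The mean of the 40 genes, relative to the mean of the 12 thymi, ranged from -0.16 to 1.10 in tumors and from -0.21 to 0.17 in thymi. It was lowest in HT tumor 03 (-0.16), KO tumor 06 (-0.07), KO tumor 04 (-0.00395) and HT tumor 01 (-0.00363), which lay inside the thymus range, while the other 15 tumors lay between 0.33 and 1.10. In those 4 tumors 8 to 16 members exceeded every thymus and 12 to 17 lay below every thymus, against 21 to 38 and 1 to 11 in the other 15. KO tumor 05 had 38 members above the thymus range and KO tumor 02 had 37. Such counts were not made over all genes, which also varied more in tumors, by a median SD ratio of 3.32. They therefore do not set the members apart from other genes. WT tumor 02 had the highest mean.

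The same 4 tumors had the 4 highest means of B cell markers, 10.49 to 12.41 against 4.38 to 9.61 in the other 15 tumors and 5.37 to 6.70 in thymi. They also had the 4 lowest means of proliferation markers, 9.14 to 10.41 against 10.85 to 12.45 in the other 15. They had the 4 highest means of neutrophil markers, 7.06 to 8.71 against 3.74 to 6.22 in the other 15. Their summed fibroblast signals were the 4 lowest, 326 to 882 intensity units against 3260 to 17450. Means of fibroblast markers overlapped, at 4.63 to 5.67 in the 4 tumors and 5.39 to 8.50 in the other 15. Myc levels in the 4 tumors were 8.97 to 10.13, against 10.07 to 12.14. The members did not fall alike in these tumors. Polymerase I genes averaged +0.43 in KO tumor 04, +0.51 in KO tumor 06 and +0.14 in HT tumor 01, and small-subunit factors +0.40, +0.42 and +0.29. PeBoW genes averaged -0.57, -0.87 and -0.49 in these 3 tumors, and genes of translation and iron uptake -0.75, -1.11 and -0.54. HT tumor 03 was negative in all 4 of these groups, at -0.20, -0.09, -0.93 and -0.21. Tfrc was lowest in KO tumor 04 (10.74) and Nop58 in KO tumor 06 (9.89).

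These 4 tumors had the lowest member means, so leaving them out raises the tumor mean of the members by construction. Without them, 29 members were higher and 1 was lower than in thymi. All genes also gave more calls, with 16.5% higher and 16.9% lower, against 11.6% and 12.6% with all tumors. Tfrc then differed by 1.86, Nop58 by 1.28, Wdr12 by -0.84, Odc1 by 1.06 and Npm1 by 0.19. The part of other cell types in the levels of the 4 tumors was not tested.

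**Figure D4:**
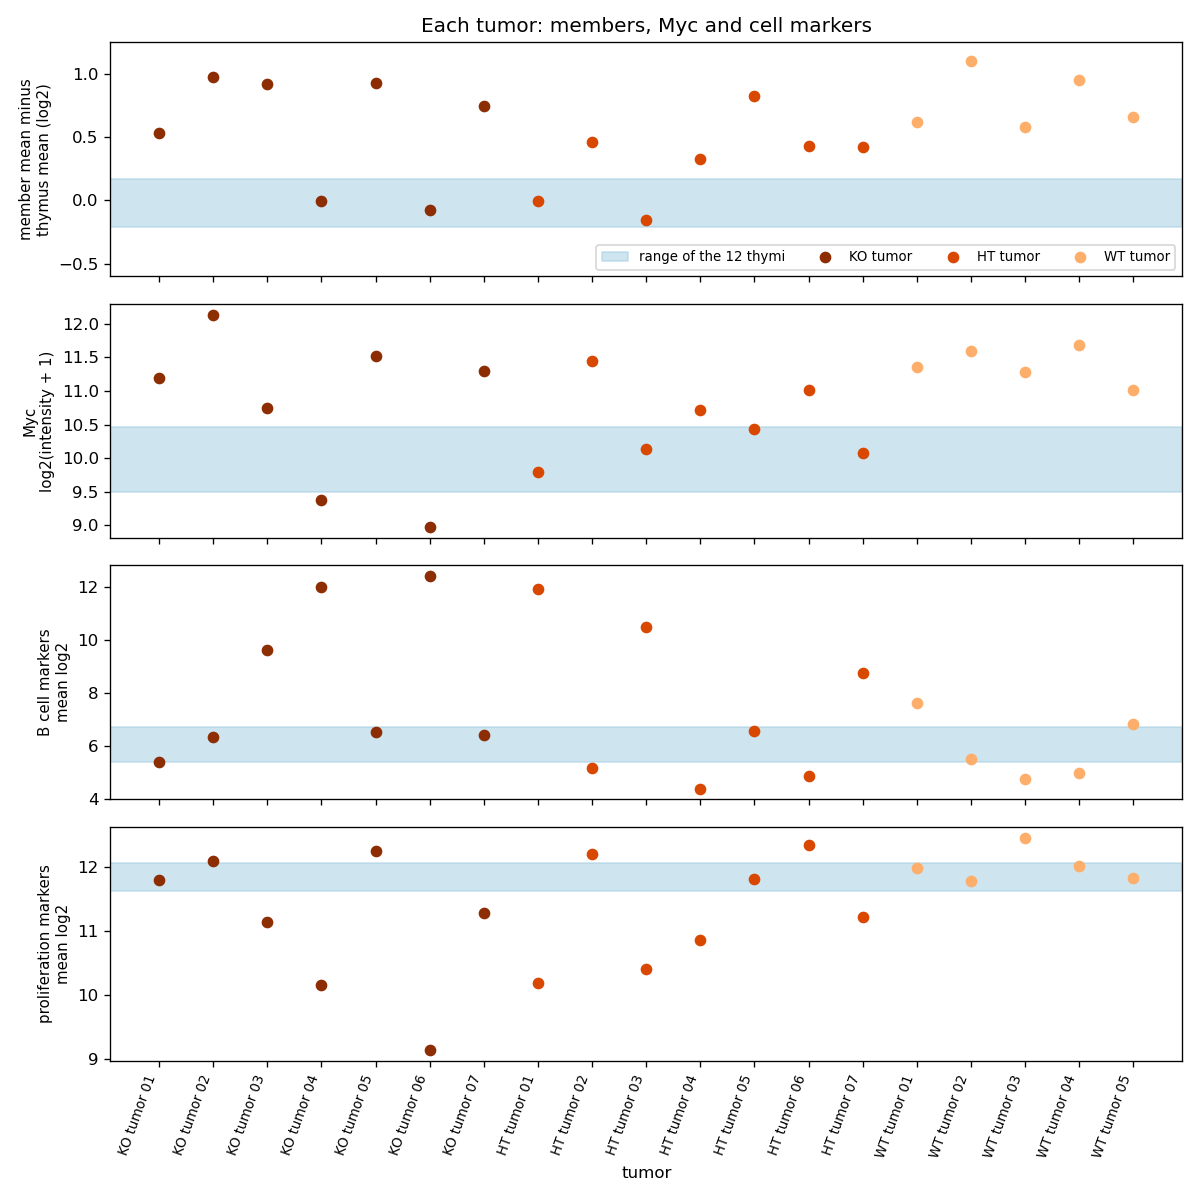
For each tumor (across), from top to bottom, the mean of the 40 genes minus the thymus mean, the level of Myc, and the means of B cell and proliferation markers, all in log2 units; the band is the range of the 12 thymi. KO tumors 04 and 06 and HT tumors 01 and 03 have the lowest member means, the highest B cell marker means and the lowest proliferation means.

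Members varied more between tumors than between thymi. The SD was larger in tumors for all 40, with a median of 0.61 against 0.15 in thymi, and a median ratio of 3.66 against 3.32 over all genes tested. The ratio was highest for Eif4e (8.57) and Ddx18 (8.50) and lowest for Rrp1b (1.79).

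Within each genotype the members leaned the same way, with fewer passing. In KO tumors against KO thymi 8 were higher, among them Rrp12 (1.65), Polr1a (1.58), Polr1b (1.50) and Rrp1b (1.44), against 2.1% of all genes called higher, and the median was +0.66. In HT tumors against HT thymi only Rrs1 passed (0.73, limma adjusted p = 0.0499, with the probe set used). Over all genes 1.18% were higher, and the member median was +0.40. In WT tumors against WT thymi 14 were higher, led by Tfrc (2.08), Polr1b (1.72), Nop58 (1.69) and Cad (1.69), against 2.88% of all genes, and the median was +0.83. The difference between genotypes was tested as an interaction, and 0 members and 0 genes passed for KO minus WT or HT minus WT with limma. At an unadjusted p under 0.05 there were 0 members in each, against 0.849% and 1.05% of all genes. The member medians of the interaction were -0.22 for KO minus WT and -0.48 for HT minus WT.

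These counts changed when single arrays were left out, as did those of all genes. Counts of members are given here for both directions together. The KO count was 2 to 4 without KO thymus F_02, M_01 or M_02, and 13 without KO tumor 01, with 12 higher and 1 lower. It was 5 without any 1 of KO thymus F_01, HT thymus F_01 or M_01, WT thymus F_02 or M_01, or KO tumors 02 or 03, with 1 of the 5 lower without KO tumor 02. The WT count was 2 without WT thymus F_02, 4 without WT thymus F_01, M_01 or M_02 or WT tumor 04, and 5 without WT tumor 02. It was 7 without WT tumor 05 or KO tumor 02, and 9 without KO thymus F_02, HT thymus F_02 or M_01, or HT tumor 04. The HT count ranged from 0 to 2, and was 2 without HT tumor 03, KO tumor 03 or KO tumor 06, with 1 of the 2 lower without KO tumor 06. It was 0 without any 1 of the 12 thymi, WT tumors 01, 03 or 04, HT tumors 02, 05 or 07, or KO tumors 01 or 02. In female arrays alone 0 members passed in any genotype, against 0.642% of all genes for KO, 1.01% for HT and 0.899% for WT. With any 1 array left out, all genes gave 294 to 908 calls for KO, 228 to 571 for HT and 366 to 1190 for WT. With all arrays these were 667, 491 and 920.

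Between tumors of different genotype no member passed. In HT against WT tumors 38 of 40 members had negative differences, with a median of -0.46, against -0.01 over all genes. Members varied together across the 19 tumors, with a median correlation of 0.65 between a member and the mean of the others. The 38 are therefore not separate observations. Polr1b in HT tumors 01 to 07 had 7.34, 8.16, 6.82, 7.67, 8.84, 8.11 and 8.97, against 8.57, 9.65, 8.76, 9.82 and 8.50 in WT tumors 01 to 05. The groups overlapped, since HT tumors 05 and 07 each exceeded 3 of the 5 WT tumors. The difference was -1.07 (95% interval -1.98 to -0.16). Nop58 differed by -1.10 (-2.13 to -0.08), Srm by -0.88 and Dkc1 by -0.60. With limma 0 of the 40 and 0.0% of all genes passed, the smallest adjusted p among members being 0.936. At an unadjusted p under 0.05 there were 8 members and 390 genes, 2.78%. The 4 tumors rich in B cell markers, of which 2 are HT and none WT, had the lowest member means. Leaving them out therefore raises the HT side by construction. The median was then -0.28, and 0 members reached an unadjusted p under 0.05.

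In KO against WT tumors the member median was -0.24, with 6 of 40 positive, and in KO against HT tumors +0.26, with 32 positive. The medians over all genes were +0.01 and +0.03. Neither comparison gave a member or a gene past the adjusted threshold with limma (0.0% of all genes). At an unadjusted p under 0.05, KO against WT had 0 members, against 3.37% of all genes, and KO against HT had 1 member, against 1.1% of all genes. That member was Polr1a, which had 8.51, 9.67, 9.81, 8.52, 9.75, 8.80 and 9.16 in KO tumors 01 to 07, against 8.56, 8.19, 8.18, 8.09, 9.25, 7.96 and 8.88 in HT tumors 01 to 07. Its groups overlapped and it differed by 0.73 (95% interval 0.03 to 1.43). The 4 tumors rich in B cell markers include KO tumors 04 and 06 and no WT tumor, and had the lowest member means. Leaving them out therefore raises the KO side by construction. The KO against WT median was then +0.08, with 22 of 40 members positive. The median half-width of the members' 95% intervals was 0.74 for KO against WT. These 3 comparisons share tumors and are not independent.

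In thymi the differences between genotypes were small beside those between tumors. Member differences ranged from -0.12 to 0.13 for KO against WT, from -0.23 to 0.25 for HT against WT and from -0.33 to 0.28 for KO against HT. No member passed in any of these with limma, against 0.185%, 0.0214% and 0.0571% of all genes. At an unadjusted p under 0.05 there were 0, 1 and 2 members, against 5.0%, 6.75% and 8.4% of all genes. They were Ddx21 (-0.23) in HT against WT and Odc1 (0.28) and Rrs1 (0.24) in KO against HT. The 95% intervals for KO against WT stayed within -0.58 and 0.49. With the replicate label as a block, 0 members passed in each, with 0, 2 and 3 at an unadjusted p under 0.05.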

How the data were processed

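RNA from 19 tumors and 12 thymi was read on 1 array each, and depth has no meaning for arrays, so their number limits the precision. The deposited intensities were made by the authors with GCRMA (background correction, normalization and summary over probes), per the submitters' processing notes; no version is given in the sources used here. All 31 arrays share a minimum of 4.06, a median of 20.0 and a maximum of 61750, so a change of most transcripts in 1 direction cannot be seen. Per the labels' protocols the RNA was prepared with a whole-transcript assay, although this array reads 3' ends.

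Of 45101 probe sets, 34944 matched 1 gene by the platform annotation, 932 several and 9224 none; 1 had no value. Members and lists were chosen with earlier results of these data known. Each gene was read from its probe set of highest mean log2(intensity + 1), and genes above the 25th percentile of the mean (3.61) were tested. limma 3.58.1 (R 4.3.3; lmFit, eBayes, sex as a covariate) gave differences and Benjamini-Hochberg adjusted p over 14017 genes, with a threshold of 0.05. Tumor against thymus and its interactions used all 31 arrays, and genotypes were compared within the 19 tumors and within the 12 thymi. Named genes were all 40 members, with up to 5 highest and 5 lowest of each longer list among those past the threshold. Scripts were tested on simulated data. Alternatives varied the pseudocount, filter, normalization, variance model, sex, probe set, 3'/5' ratio, array weights, replicate block and arrays; centring and leaving out 2 high-ratio tumors were added after seeing the data. Same-label deviations of thymi correlated at 0.386 to 0.581, but these labels also share sex, so pairing cannot be told apart from sex. Tumor numbers did not pair (-0.566 to 0.565). Promoter sequences are RefSeq's for GRCm38.p6.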

Additional observations from a re-analysis of the deposited data

Results flagged for a closer look

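In 11 of 240 tests of a gene in a group, 1 array lay far from the others of its group, and chance gives about 1 in 20. In tumors these were Ncl in HT tumor 07 (12.52 log2 units, others 13.63 to 14.30), the tumor of highest 3'/5' ratio, and Rrp12 (9.34, others 7.19 to 8.06) and Noc4l (12.26, others 9.86 to 10.64) in KO tumor 03.

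Among thymi, HT thymus M_02 was the lowest of its group for Fbl (11.87, others 12.11 to 12.15), Rrp1b (8.13, others 8.87 to 9.00), Noc4l (9.43, others 9.78 to 9.83) and Eif5a (14.39, others 14.53 to 14.56). Eif4e was highest in HT thymus M_01 (12.31, others 12.10 to 12.12). Bop1 was highest in WT thymus F_01 (9.40, others 9.02 to 9.04) and Noc4l in WT thymus M_01 (10.05, others 9.64 to 9.69). Ppat was lowest in KO thymus F_02 (10.36, others 10.48 to 10.50).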

How the results depend on the processing

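Of the 26 members that passed in tumors against thymi, 9 passed under all 46 alternatives (Nop2, Rrp1b, Rrp12, Wdr12, Wdr43, Utp20, Polr1b, Mybbp1a and Odc1). How many of all genes passed under all 46 was not counted, so the 9 do not set the members apart. The member count was 20 to 27 with any 1 array left out and 11 in female arrays alone. All genes gave 2649 to 3678 and 1469 (10.5%) in these settings, against 3390 with all arrays. With the gene's other probe set, Pes1 turned to -0.0844 and Nme1 to -0.16. Srm failed in 28 alternatives, among them leaving out any 1 of the 12 thymi, WT tumors 02 or 04, HT tumors 02, 04, 05 or 07, or KO tumors 02, 03, 05 or 07. Nop56 failed in 16 and Noc4l in 15, both without any 1 of the 6 female thymi, WT tumors 02, 04 or 05, or KO tumor 02, and Nop56 also without HT tumor 04. Pes1 failed in 12, among them leaving out WT thymus F_01 or F_02, HT or KO thymus F_02, WT tumors 02 or 03, or KO tumor 02. Bop1, Nob1 and Grwd1 failed without KO tumor 02, and Bop1 without KO thymus F_02. Eif4e passed in 11.

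Counts within genotypes, both directions together, moved most. Leaving out 1 array gave 2 to 13 for KO, 0 to 2 for HT and 2 to 15 for WT. Array weights gave 25, 12 and 32, and female arrays 0 in each. Without the 4 tumors rich in B cell markers, which had the lowest member means, KO gave 19 and HT 9. All genes moved too: 667, 491 and 920 for KO, HT and WT became 2474, 2233 and 4271 with array weights, 90, 141 and 126 in female arrays, and 1611, 1369 and 1641 without the 4 tumors. With 1 array left out all genes gave 294 to 908, 228 to 571 and 366 to 1190. For members, the other probe set gave 5 for KO and 9 for WT. The 3'/5' covariate gave 5 for KO, centring 9 for WT, and no sex covariate 4 for HT. HT gave 0 with a pseudocount of 0.1, no filter, a filter at the median, trend and robust settings, the mean over probe sets, centring, or without the 2 tumors of highest ratio. The count of further ribosome biogenesis genes was 33, with 23 to 38 leaving out 1 array, 13 in female arrays, 20 with the ratio and 64 with array weights. That of further MYC targets was 17, with 11 to 20 leaving out 1 array, 5 in female arrays, 11 with either other probe set choice, 32 with array weights and 27 without the 4 tumors. Over all genes, array weights gave 6485 and female arrays 1469 in place of 3390. With the replicate number as a block, 0 members passed in any comparison of genotypes, with medians of -0.16, -0.45 and 0.26 for KO against WT, HT against WT and KO against HT tumors, and the block changed no call of a member; over all genes it gave 23 in place of 26 for KO against WT thymi. Fewer arrays were fitted where arrays were left out, and the causes of these changes were not tested.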
